A study of Leymus chinensis with 14 samples.

Results

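In the abundance table of sheepgrass leaves, GIGANTEA was represented by 4 loci, g98846, g85206, g136478 and g82379, out of 29560 loci. They were chosen by name: their transcripts carry the Swiss-Prot description Protein GIGANTEA, and no other locus of the table has that name. The deposited table may have been cut short at its last line, so further GIGANTEA loci may be missing from it. The number of copies in the leaves is therefore not known from it. Each of the 4 loci has 1 transcript, and 4 of 4 passed the filter on low values that left 20567 loci for testing. Sheepgrass (Leymus chinensis) is a perennial, salt-tolerant forage grass with an allotetraploid genome, so several copies of a gene are usual. All 4 loci point to the same Swiss-Prot entry, at 86.6% identity for g98846, 87.5% for g85206, 93.9% for g136478 and 87.9% for g82379. Against the larger Nr protein collection the best hits of g98846, g85206 and g82379 are wheat GIGANTEA proteins at 98.26%, 98.5% and 98.55% identity. The best Nr hit of g136478 is gigantea2 of maize at 87.3%, a more distant match than those of the other loci. Its identity to the Swiss-Prot entry that gave the name is the highest of the 4. Why these figures differ was not tested. Near-identical copies can share reads, and no source used here says how reads were divided among them.

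GIGANTEA is a large plant protein of the circadian clock whose transcript, in Arabidopsis and in cereals, follows a daily rhythm with a peak late in the day. In Arabidopsis it holds and stabilises the blue-light-sensing F-box protein ZEITLUPE, which marks the clock proteins TOC1 and PRR5 for breakdown, and with the related protein FKF1 it removes the cyclic dof factors that repress CONSTANS, a promoter of flowering. Also in Arabidopsis, GIGANTEA binds the kinase SOS2 of the salt tolerance pathway and is broken down under salt stress, which frees the kinase to act on the sodium exporter SOS1. It is thus a gene on which day length, light and salt signals are known to meet.

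Leaves of 3-week-old plants grown on half-strength MS medium gave 14 RNA-seq libraries in 5 groups. They were low light with high salt (2 libraries), the low-light group labelled ck, here called the low-light check (3), the normal-light ck group, here called the normal-light check (3), normal light with low salt (3) and normal light with high salt (3). All plants carry the same species label and no other genotype is named. The salt concentrations, the light levels, the time of day of harvest and whether the libraries came from separate plants are not given in the labels, so the p-values speak only of the spread among these libraries. The leaf label was checked against 12 Rubisco small chain loci and 44 chlorophyll a-b binding protein loci, all leaf markers. Summed over each list, the deposited abundance was 7365 to 37354 for the Rubisco small chain and 18568 to 46609 for the chlorophyll a-b binding proteins across the libraries. Abundances summed to 470162 to 581690 per library, and 10.3% to 18.5% of the transcripts were listed at 0. The unit of the abundances is not named and no count or depth can be had from them, so differences between libraries are read within a locus, and the level of 1 GIGANTEA copy is not set against that of another. In whole leaves, fewer cells of a type and less RNA per cell cannot be told apart.

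All 4 GIGANTEA loci had their lowest group mean in the normal-light check and stood higher in the low-light check. Their low-light check means were 2.27 to 3.39 times the normal-light check means, and all 4 increases passed the test. Of all tested loci 10.7% were called higher in that comparison. High salt at normal light raised g98846 and g85206 by 1.83 and 2.26 times, while g136478 and g82379 did not pass. There 2.98% of all tested loci were called higher. The salt calls of g98846 and g85206 both ended after median-of-ratios scaling, as did the low-light calls of g136478 and g82379. Scaling by library totals kept both salt calls (limma adjusted p of 0.030 and 0.033) and all 4 low-light calls (limma adjusted p from 0.0032 to 0.013). It left the median change over all loci at 0.38 under high salt and 0.46 under low light. High salt added to low light changed none of the 4 at the threshold, where 0.574% of all loci were called in either direction.

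Locus g98846 stood at 56.2 and 43.2 in the low-light high-salt libraries, against 37.97, 38.8 and 38.3 in the low-light check. At normal light it stood at 18.5, 15.7 and 16.6 in the check, 20.9, 27.6 and 34.7 with low salt, and 36.1, 29.2 and 27.8 with high salt. As deposited, every low-light library was above every normal-light library, whatever the salt. After median-of-ratios scaling, low-light check library 1 (31.8) lay below normal-light high-salt library 1 (33.3) and low-salt library 3 (34.4). The share of all loci with this separation was not computed. Deposited group means were 49.7 ± 9.15 for low light with high salt (SD, n = 2), 38.4 ± 0.414 for the low-light check, 16.9 ± 1.43 for the normal-light check, 27.7 ± 6.93 under low salt and 31.0 ± 4.46 under high salt at normal light (SD, n = 3 each). In this order of means, the high-salt and low-salt groups at normal light are the neighbours whose libraries overlapped.

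Locus g85206 stood at 26.9 and 19.4 in the low-light high-salt libraries, against 21.5, 22.6 and 21.2 in the low-light check. At normal light it stood at 6.69, 7.69 and 9.03 in the check, 11.5, 12.6 and 21.6 with low salt, and 22.6, 16.6 and 13.7 with high salt. As deposited, the normal-light check was below all other groups, and the other 4 groups overlapped one another. After median-of-ratios scaling the check still lay below, at 10.8 or less against 12.3 or more. The shares of tested loci that set pairs of groups apart are given with each comparison below. The deposited means were 23.1 ± 5.35 for low light with high salt (SD, n = 2), 21.8 ± 0.728 for the low-light check, 7.80 ± 1.18 for the normal-light check, 15.2 ± 5.52 under low salt and 17.6 ± 4.56 under high salt at normal light (SD, n = 3 each).

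Locus g136478 stood at 16.7 and 18.4 in the low-light high-salt libraries, against 23.8, 34.1 and 15.9 in the low-light check. At normal light it stood at 5.84, 8.76 and 7.18 in the check, 14.9, 6.54 and 13.9 with low salt, and 16.8, 12.99 and 7.40 with high salt. Only the low-light groups were fully above the normal-light check, since 1 low-salt library and 1 high-salt library at normal light lay within the check's range. Its means were 17.6 ± 1.24 for low light with high salt (SD, n = 2), 24.6 ± 9.15 for the low-light check, 7.26 ± 1.46 for the normal-light check, 11.8 ± 4.57 under low salt and 12.4 ± 4.72 under high salt at normal light (SD, n = 3 each).

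Locus g82379 stood at 15.1 and 9.003 in the low-light high-salt libraries, against 17.8, 7.05 and 13.3 in the low-light check. At normal light it stood at 4.65, 3.54 and 4.27 in the check, 4.80, 6.03 and 9.11 with low salt, and 10.4, 7.87 and 8.15 with high salt. As deposited, the 3 normal-light check libraries were the lowest of the 14, by a small margin to the lowest low-salt library. After median-of-ratios scaling, normal-light check library 1 (6.27) lay above low-salt library 1 (5.59). The shares of tested loci that set each pair of groups apart are given with the comparisons below. Deposited means were 12.03 ± 4.28 for low light with high salt (SD, n = 2), 12.7 ± 5.41 for the low-light check, 4.15 ± 0.562 for the normal-light check, 6.65 ± 2.22 under low salt and 8.79 ± 1.36 under high salt at normal light (SD, n = 3 each).

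**Figure D1:**
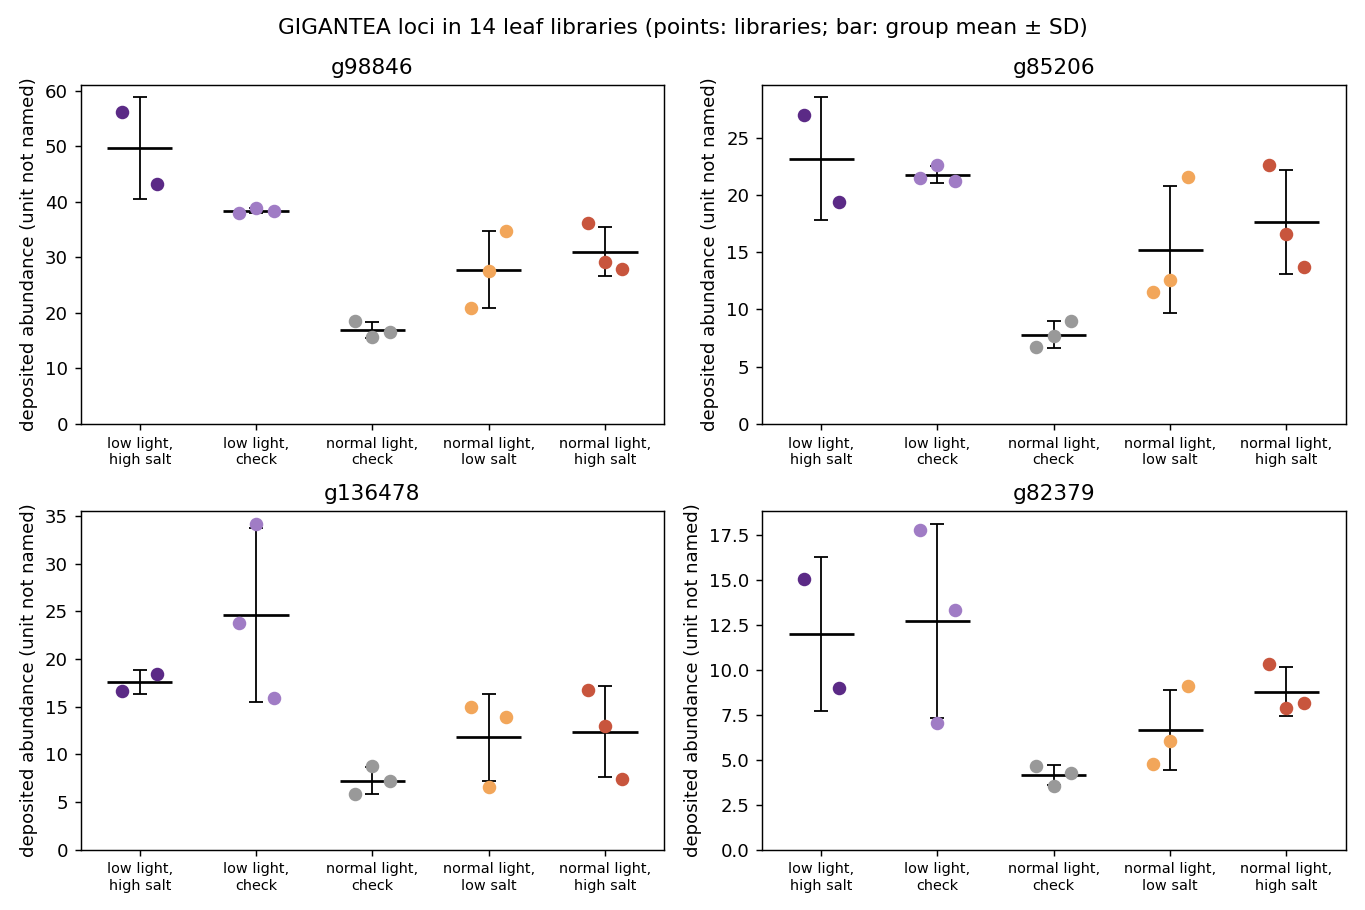
Deposited abundance (unit not named, linear axis from 0) of the 4 GIGANTEA loci in each of the 14 libraries, by group, with a bar at the group mean and whiskers of 1 SD. The normal-light check has the lowest mean in all 4 panels, and the low-light check points of g136478 spread from 15.9 to 34.1 while those of g98846 lie between 37.97 and 38.8.

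Low light without added salt raised all 4 loci as deposited. On the log2(abundance + 1) scale, limma gave a change of 1.14 (SE 0.20, adjusted p = 0.0046) for g98846 and 1.38 (SE 0.26, adjusted p = 0.0059) for g85206 in the low-light check against the normal-light check. For g136478 the change was 1.58 (SE 0.37, adjusted p = 0.015) and for g82379 it was 1.33 (SE 0.33, adjusted p = 0.020). So 4 of 4 loci were called higher, where 10.7% of all tested loci were called higher in this comparison. In 4 of 4 loci every low-light check library was above every normal-light check library, a pattern that 26.3% of tested loci showed.

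The abundances as deposited place the whole table higher in the low-light check: the median change over all tested loci was 0.35. Relative to that median the GIGANTEA changes were 0.79 for g98846, 1.03 for g85206, 1.24 for g136478 and 0.99 for g82379. Median-of-ratios scaling, which divides each library by its typical locus, brought the median over all loci to 0.04. After it g98846 (0.68, limma adjusted p = 0.034) and g85206 (0.95, limma adjusted p = 0.022) kept their call. Locus g136478 (1.15, limma adjusted p = 0.078) and g82379 (0.93, limma adjusted p = 0.064) did not, while 3.6% of all loci were called higher. The groups stayed apart in all 4 loci after scaling, as in 13.3% of tested loci. The scaling factors were 0.742 to 0.858 in the normal-light check libraries and 0.859 to 1.22 in the other 11, and the summed Rubisco small chain abundance was 25336 to 37354 in the normal-light check and 7365 to 17247 in the others. Their part in the GIGANTEA differences was not tested beyond this scaling. The calls of g136478 and g82379 were also lost without normal-light check library 1 or without library 3, and that of g82379 without normal-light check library 2 or low-light check library 1 or 3, or when limma was fitted to these 2 groups alone (adjusted p = 0.081).

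Among the high-salt plants, low light gave smaller differences in all 4 loci. Locus g98846 had all low-light high-salt libraries above all normal-light high-salt libraries, as 18.1% of tested loci did, and the other three overlapped. The mean ratios of low light to normal light were 1.60 for g98846, 1.31 for g85206, 1.42 for g136478 and 1.37 for g82379. None passed in limma, with changes of 0.66 (SE 0.23, adjusted p = 0.29), 0.38 (SE 0.29, adjusted p = 0.69), 0.54 (SE 0.41, adjusted p = 0.70) and 0.38 (SE 0.37, adjusted p = 0.77) in the same order of loci. Of all loci 0.593% were called higher. At an unadjusted p under 0.05 there was 1 of 4, g98846, against 10.4% of all loci. Averaged over the check and high-salt pairs, low light raised all 4 loci, by 0.90 for g98846 (limma adjusted p = 0.0054), 0.88 for g85206 (0.016), 1.06 for g136478 (0.031) and 0.86 for g82379 (0.044), where 8.25% of all loci were called higher. After median-of-ratios scaling the average effect of g98846 remained called (0.61, limma adjusted p = 0.019). The other three ranged from 0.60 to 0.79 with adjusted p of 0.051 to 0.12, against 3.37% of all loci called higher. Without low-light high-salt library 1 the count of average calls was 1, and without normal-light check library 1 or 3, normal-light high-salt library 2 or low-light high-salt library 2 it was 2.

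At normal light, salt left the copies between the normal-light check and the low-light check. With high salt the means were 1.83 times the check for g98846, 2.26 times for g85206, 1.71 times for g136478 and 2.12 times for g82379. Limma gave log2 changes of 0.83 (SE 0.20, adjusted p = 0.045) for g98846 and 1.06 (SE 0.26, adjusted p = 0.045) for g85206, which were called. The changes of 0.65 (SE 0.37, adjusted p = 0.31) for g136478 and 0.92 (SE 0.33, adjusted p = 0.12) for g82379 were not called, and 2.98% of all loci were called higher. The high-salt libraries were all above the check libraries in g98846, g85206 and g82379, a pattern of 23.8% of tested loci, whereas the lowest high-salt library of g136478, 7.40, lay inside the check's range.

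Both high-salt calls sit next to the threshold. The median over all loci was 0.29, which leaves 0.55 for g98846, 0.78 for g85206, 0.36 for g136478 and 0.64 for g82379 relative to it. After median-of-ratios scaling neither was called (0.46 with limma adjusted p = 0.18 for g98846 and 0.71 with adjusted p = 0.11 for g85206), and 0.758% of all loci were called higher. The calls also ended when normal-light check library 1, 2 or 3, normal-light high-salt library 1 or 2, low-salt library 2, low-light check library 3 or either low-light high-salt library was left out. Without low-salt library 1, 1 of them remained. In g98846, g85206 and g82379 the groups also stayed apart after scaling, as in 12.1% of tested loci.

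With low salt at normal light the means were 1.64 times the check for g98846, 1.95 times for g85206, 1.62 times for g136478 and 1.60 times for g82379. Limma changes were 0.66 (SE 0.20, adjusted p = 0.23), 0.84 (SE 0.26, adjusted p = 0.23), 0.57 (SE 0.37, adjusted p = 0.58) and 0.54 (SE 0.33, adjusted p = 0.56) in that order. None was called, where 0.0194% of all loci were called higher. At an unadjusted p under 0.05 there were 2 of 4, g98846 and g85206, against 12% of all loci. The low-salt libraries were all above the check in g98846, g85206 and g82379, a pattern of 14% of tested loci. After median-of-ratios scaling that held for g85206 alone, as in 9.51% of tested loci. Low-salt library 3 was the highest of its group in g98846, g85206 and g82379, and library 1 in g136478. High against low salt differed by 0.18, 0.22, 0.08 and 0.39 for the 4 loci in the same order, with overlapping libraries in each. None was called in limma, where 0.0486% of all loci were called in either direction, and none had an unadjusted p under 0.05, against 10.8% of all loci.

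At low light, high salt did not move the 4 loci one way. Locus g98846 was 1.295 times the low-light check, with both high-salt libraries above all 3 check libraries, as in 13.1% of tested loci. The other copies overlapped, at 1.06 times for g85206, 0.714 times for g136478 and 0.944 times for g82379. Limma changes were 0.35 (SE 0.23, adjusted p = 0.80), 0.07 (SE 0.29, adjusted p = 1), -0.40 (SE 0.41, adjusted p = 0.92) and -0.03 (SE 0.37, adjusted p = 1) in that order. None was called, where 0.574% of all loci were called in either direction, and none had an unadjusted p under 0.05, against 8.27% of all loci. Averaged over both light levels, high salt gave 0.59 for g98846 (limma adjusted p = 0.089), 0.56 for g85206 (0.18), 0.12 for g136478 (0.86) and 0.45 for g82379 (0.39). None of these averages was called, where 0.919% of all loci were called higher. At an unadjusted p under 0.05 there were 2 of 4, g98846 and g85206, against 16.1% of all loci.

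The difference between the salt responses at the 2 light levels was tested directly by the interaction term. It was negative in all 4 loci, at -0.48 (SE 0.30, adjusted p = 0.48) for g98846, -0.99 (SE 0.39, adjusted p = 0.28) for g85206, -1.05 (SE 0.55, adjusted p = 0.39) for g136478 and -0.95 (SE 0.49, adjusted p = 0.39) for g82379 in limma. None was called, where 0.209% of all loci were called in either direction. At an unadjusted p under 0.05 there was 1 of 4, g85206, against 14.5% of all loci. The median interaction over all loci was itself -0.24, which leaves -0.24 for g98846, -0.75 for g85206, -0.80 for g136478 and -0.71 for g82379 relative to it. After median-of-ratios scaling the interaction was -0.15 for g98846 (limma adjusted p = 0.87), and -0.66 to -0.73 for the other three (limma adjusted p from 0.44 to 0.63).

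With both treatments together, low-light high-salt leaves held 2.94 times the normal-light check level of g98846, 2.97 times that of g85206, 2.42 times that of g136478 and 2.89 times that of g82379. Low light without salt, which shares the normal-light check libraries, gave 2.27, 2.79, 3.39 and 3.07 times in the same order of loci. Limma called g98846 (1.49, SE 0.23, adjusted p = 0.0037), g85206 (1.45, SE 0.29, adjusted p = 0.013) and g82379 (1.304, SE 0.37, adjusted p = 0.045) higher, and g136478 missed (1.18, SE 0.41, adjusted p = 0.088). Among all loci 7.31% were called higher, with a median of 0.39. In 4 of 4 loci both groups stayed apart, as in 42.3% of tested loci. After median-of-ratios scaling g98846 (1.00, limma adjusted p = 0.014) and g85206 (0.98, limma adjusted p = 0.041) were called, and g82379 (0.86, limma adjusted p = 0.14) was not, with 2.83% of all loci called higher. Without low-light high-salt library 1 none was called, and without normal-light check library 1 there was 1.

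**Figure D2:**
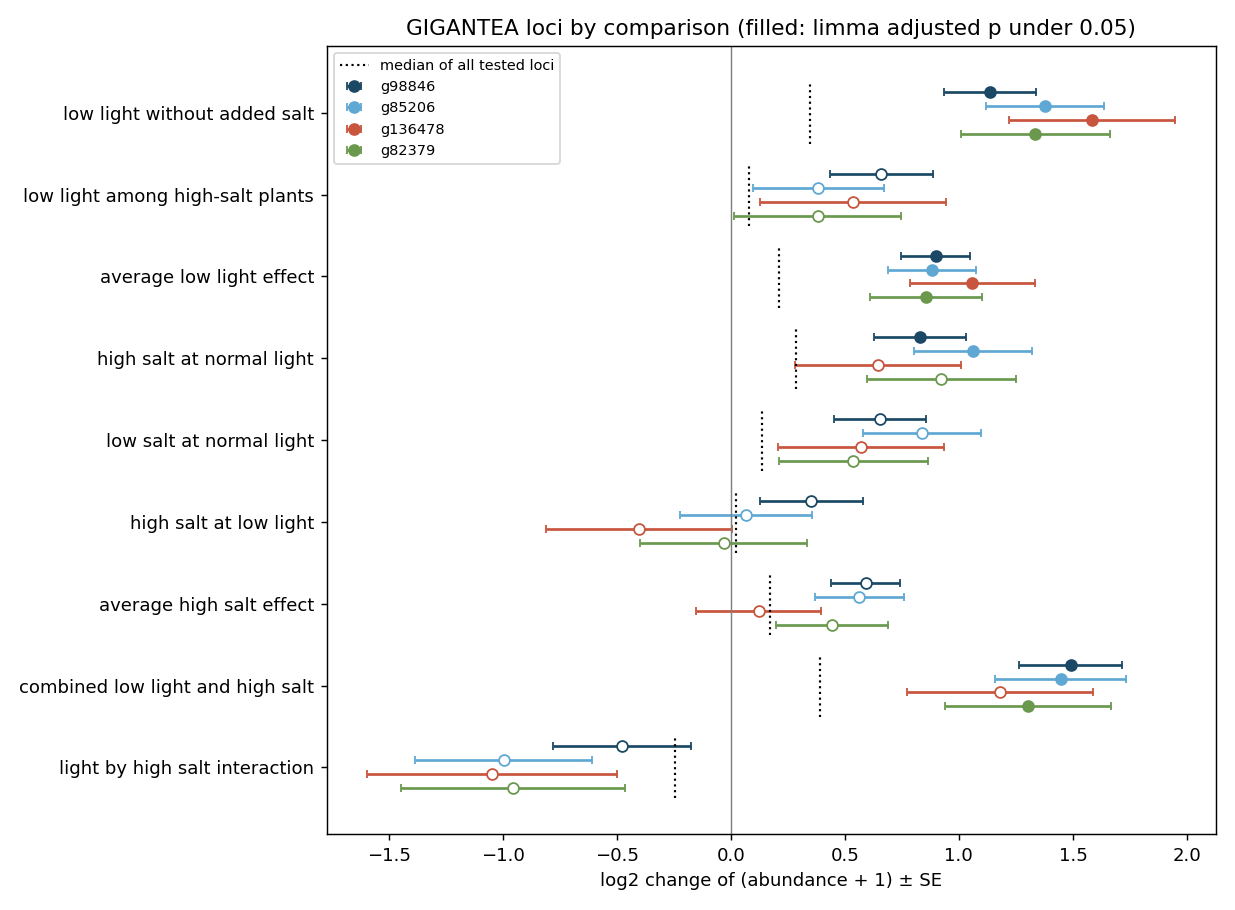
Log2 change of (abundance + 1) with its SE (horizontal axis) of the 4 GIGANTEA loci in 9 limma comparisons (rows), with filled points for adjusted p under 0.05 and a dotted line at the median of all tested loci. Low light without added salt and the average low light effect have 4 filled points each, high salt at normal light has 2, and the interaction row lies left of 0 with none filled.

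Whether the copies moved together was examined by their correlation over the 14 libraries on the log2(abundance + 1) scale, for 6 pairs with p-values from 100000 permutations. Locus g98846 and g85206 were most alike, with Pearson r = 0.95 (permutation adjusted p = 0.00012) and Spearman rho = 0.87 (permutation adjusted p = 0.0006). The pairs g98846 with g82379 (r = 0.88, rho = 0.82) and g85206 with g82379 (r = 0.86, rho = 0.83) followed, both with permutation adjusted p = 0.00012 for r. Locus g136478 tracked the others less closely, at r = 0.79 with g85206 (rho = 0.77, permutation adjusted p = 0.0012), 0.70 with g98846 (rho = 0.80, permutation adjusted p = 0.0075) and 0.59 with g82379 (rho = 0.64, permutation adjusted p = 0.028). Pearson r was also taken without the 2 libraries farthest from the median of the locus named first in each pair. It was 0.93 for g98846 with g85206, 0.81 for g98846 with g82379 and 0.82 for g85206 with g82379. The remaining pairs gave 0.73 for g85206 with g136478, 0.64 for g98846 with g136478 and 0.72 for g136478 with g82379. For g136478 with g82379 the libraries left out were low-light check 2 and normal-light check 1. The other pairs lost only normal-light check libraries.

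These correlations include the differences between groups, above all the low normal-light check. Over the 11 libraries outside that group, g98846 and g85206 had r = 0.91 (permutation adjusted p = 0.00066), and g82379 had r = 0.75 with g98846 and 0.76 with g85206 (permutation adjusted p = 0.016 for both). Locus g136478 had r = 0.66 with g85206 (permutation adjusted p = 0.041), 0.50 with g98846 (permutation adjusted p = 0.14) and 0.34 with g82379 (permutation adjusted p = 0.31). By rank over these 11 libraries the calls differed: rho was 0.75 for g98846 with g85206 and 0.74 for g98846 with g136478 (permutation adjusted p = 0.038 for both), and the other 4 pairs did not pass, at rho of 0.42 to 0.67 (permutation adjusted p from 0.055 to 0.20). Outside the normal-light check, the calls for both measures held for g98846 with g85206 alone. Within groups, as deviations from each group's mean, r was 0.81 for g98846 with g85206, 0.63 for g98846 with g82379, 0.51 for g85206 with g82379, 0.45 for g85206 with g136478, 0.06 for g98846 with g136478 and -0.21 for g136478 with g82379. As deposited, none of these within-group values passed after adjustment over the 6 pairs (permutation adjusted p from 0.095 to 0.93). Over the alternative settings other than leaving out 1 library, some passed. Within-group r of g98846 with g85206 ran from 0.72 to 0.92 (permutation adjusted p from 0.044 to 0.20). For g98846 with g82379 it ran from 0.44 to 0.70 (permutation adjusted p from 0.0050 to 0.36). Library 2 of the low-light check shows the divergence: it held the highest g136478 value of all libraries, 34.1, and the lowest g82379 value of its group, 7.05. The values of a library share its scaling, and after median-of-ratios scaling r with g98846 over the 14 libraries was 0.89 for g85206, 0.75 for g82379 and 0.54 for g136478.

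**Figure D3:**
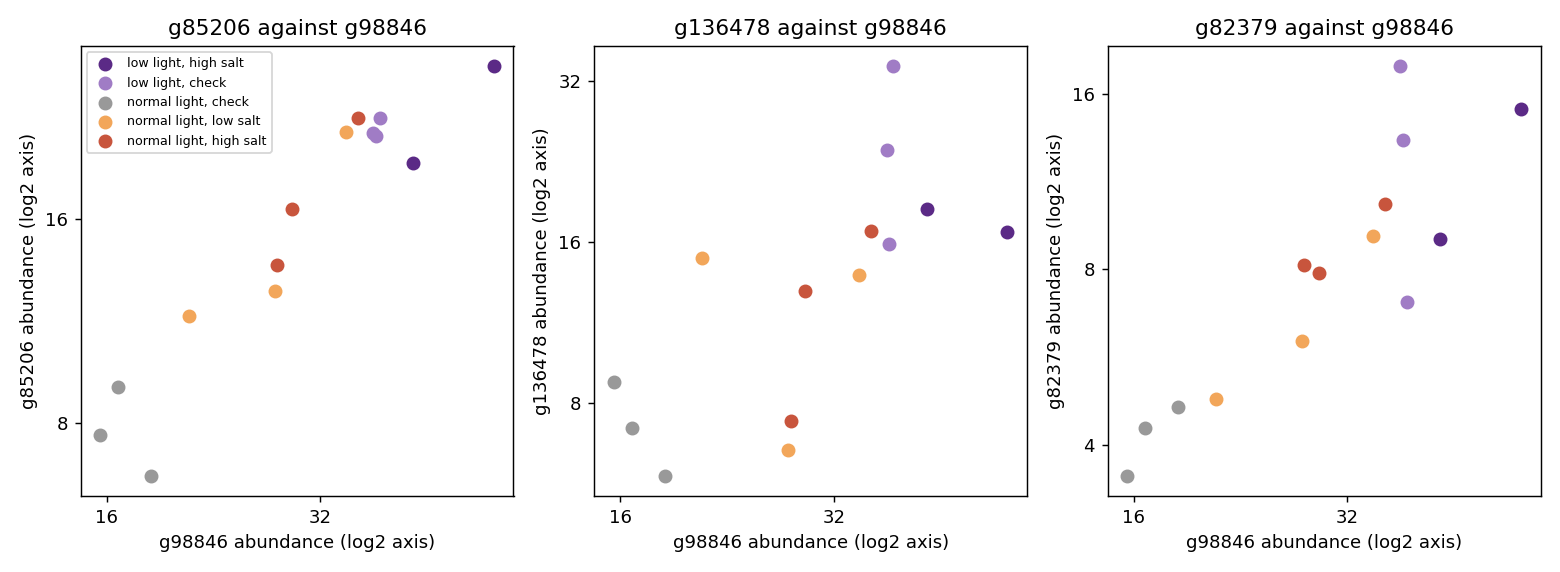
Abundance of g85206, g136478 and g82379 (vertical axes, log2) against g98846 (horizontal axis, log2) in the 14 libraries, coloured by group. The points of g85206 lie near a line (r = 0.95), while those of g136478 scatter more widely (r = 0.70), with the 3 normal-light check libraries at the low end in each panel.

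A second look used the difference in log2(abundance + 1) between the copies of each pair within a library, here called the log2 ratio. Because of the added 1, the library's scaling cancels only in part, and least for low loci. High salt within each light level and low light within each salt level were tested in an exact permutation test over 200 arrangements, two-sided, whose smallest possible p is 0.005. For low light the mean change of the ratio ranged from -0.18 (g85206 over g136478) to 0.20 (g136478 over g82379) on the log2 scale. These means join 2 salt levels that differed in sign for the pairs with g98846: low light moved g98846 over g85206 by -0.24 in the check and 0.28 with high salt, g98846 over g136478 by -0.45 and 0.12, and g98846 over g82379 by -0.20 and 0.28. Whether those 2 levels differ was not tested. For high salt the mean ranged from -0.32 (g136478 over g82379) to 0.47 (g98846 over g136478), and the smallest p was 0.08, for g85206 over g136478 with a change of 0.44. None of the 12 tests passed (exact permutation adjusted p from 0.90 to 0.93). With these library numbers, a missed threshold does not show that the copies respond alike.

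The loci most like g98846 were ranked by Pearson r over the 14 libraries among 6690 described loci with a mean abundance of at least 5, as a description. Locus g85206 ranked 3 (r = 0.95), g82379 ranked 117 (r = 0.88) and g136478 ranked 1305 (r = 0.70), where the median r over all other tested loci was 0.30. The other loci at the top were g25697, named for subunit 26c of the transcriptional mediator (r = 0.97), g27246, the nuclear transport GTPase Ran-2 (r = 0.96), g2496, mitogen-activated protein kinase 11 (r = 0.94), and g20605, a polyadenylate-binding protein (r = 0.93). After median-of-ratios scaling the r of g25697 was 0.67, against 0.89 for g85206. At the other end stood g18235, leaf ferredoxin-NADP reductase of photosynthetic electron transport (r = -0.96), g26608, phytoene synthase 2, which starts carotenoid synthesis (r = -0.94), the glycosyltransferase g23726 (r = -0.94), and the carotenoid hydroxylases g20767 and g17085, named LUTEIN DEFICIENT 5 (r = -0.94 and -0.93).

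GIGANTEA was then set beside 48 loci of the clock and of its known partners and outputs, found by their Swiss-Prot names, of which 46 were tested. In the average low light effect 6 of the 46 were called higher and 8 lower in limma, with a median change of -0.09, against 0.21 over all loci and 0.86 to 1.06 for the 4 GIGANTEA loci. The shares over all loci were 8.25% called higher and 3.06% called lower. Median-of-ratios scaling left 2 of the 46 higher and 11 lower, against 3.37% higher and 5.08% lower of all loci. The average high salt effect called 0 of the 46, with 5 at an unadjusted p under 0.05 in limma, a count to be read against 16.1% of all loci.

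Under low light, several loci of the morning side of the clock were lower. Of 7 loci of the REVEILLE family, MYB factors that peak around dawn in Arabidopsis, 5 were called lower, where 3.06% of all loci were. Among these 5, g26106 and g98118 are low, at mean abundances of 0.773 and 2.66. The largest change was in REVEILLE 2 locus g1767, which stood at 4.56 and 5.29 with low light and high salt against 17.7, 36.4 and 67.0 with normal light and high salt. In the check plants g1767 stood at 7.06, 2.44 and 0.843 at low light against 77.4, 139 and 138 at normal light, an average low light effect of -3.79 (SE 0.39, limma adjusted p = 5e-04). The clock coactivator LNK1 (g8798, -1.73, limma adjusted p = 0.0029) was also lower. So were 2 of 3 cyclic dof factor loci, g8274 (-1.52, limma adjusted p = 0.0032) and g25130 (-1.51, limma adjusted p = 0.0054), whose Arabidopsis relatives are degraded with the help of GIGANTEA. The most abundant of the 3, g25883, changed by -0.08 (limma adjusted p = 0.84).

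PRR1 locus g16290, the relative of Arabidopsis TOC1, was the only 1 of 8 pseudo-response regulator loci called higher (1.44, SE 0.34, limma adjusted p = 0.021; after scaling 1.17 with adjusted p = 0.058). Both adagio-like loci, which are relatives of ZEITLUPE and FKF1, both evening complex loci and all 3 SPINDLY and COP1 loci missed the threshold as deposited, and 2 of the last 3 were called lower after scaling. The most abundant loci of these roles changed by -0.48 for PRR37 (g22157), -0.06 for adagio-like protein 2 (g14342), -0.07 for ELF4-LIKE 4 (g24688) and 0.17 for SPINDLY (g9882), with limma adjusted p from 0.46 to 0.88. Of 10 loci of the SOS pathway 2 were called higher. They were the sodium/hydrogen exchanger 7 locus g87056 (1.16, limma adjusted p = 0.014) and the calcineurin B-like protein 4 locus g16020 (1.83, limma adjusted p = 0.037). Both are low, at mean abundances of 2.80 and 1.97. The most abundant locus of the pathway, exchanger 7 locus g8789 (mean 41.6), changed by 0.05 (limma adjusted p = 0.94). Of 10 CONSTANS-like loci 3 were called higher, by 0.92 to 1.18, where 8.25% of all loci were. These 3 are named CONSTANS-LIKE 10, as are g17914 (0.08) and g21862 (-0.98), which were not called (limma adjusted p = 0.96 and 0.20). The most abundant CONSTANS-like locus, g14261, changed by -0.16 (limma adjusted p = 0.72). After scaling 1 SOS pathway locus and 1 CONSTANS-like locus were still called higher.

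**Figure D4:**
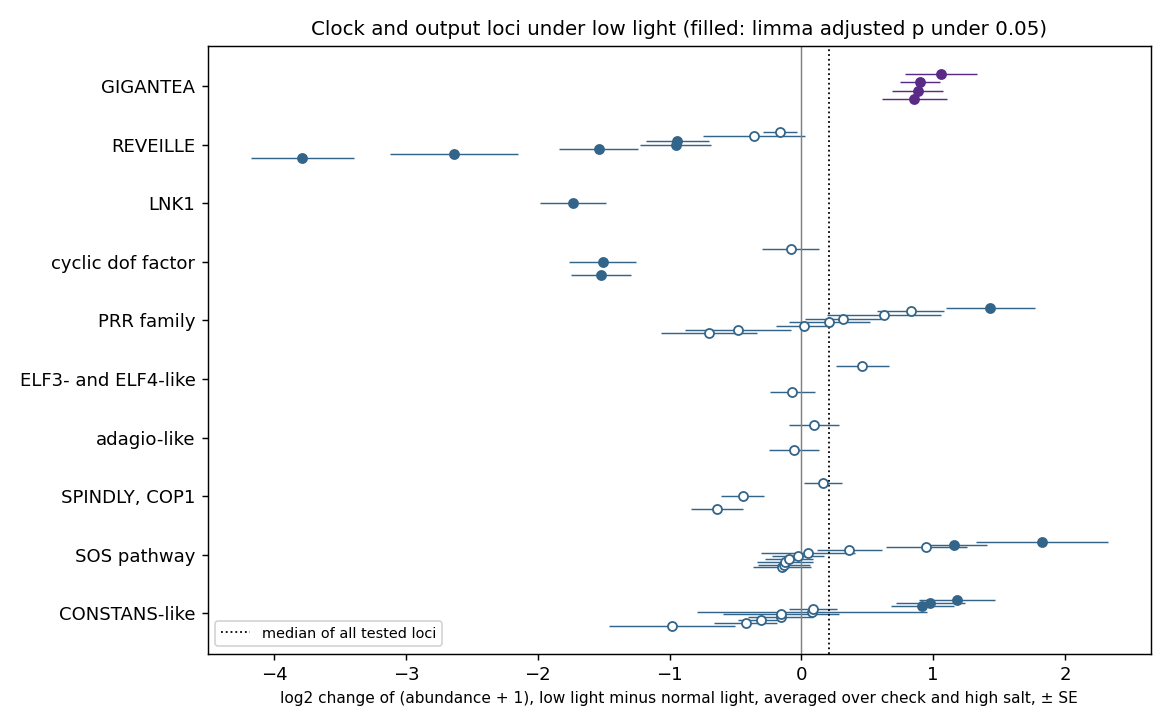
Average low light effect, as log2 change of (abundance + 1) with its SE (horizontal axis), for the 4 GIGANTEA loci and the 46 tested clock and output loci, grouped by role (rows), with filled points for limma adjusted p under 0.05 and a dotted line at the median of all tested loci, 0.21. The GIGANTEA points lie right of that line at 0.86 to 1.06, and the REVEILLE, LNK1 and cyclic dof factor points reach from near 0 to -3.79.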

How the data were processed

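The authors deposited 1 table of abundance per assembled transcript and library, a non-negative signal whose unit is not named. The submitters' processing notes list StringTie 1.3.0, HISAT2 2.0, Bowtie 0.12.2 and a mouse build, mm8, and give none of them a role. Per the labels' protocols the RNA was extracted with a plant kit, in a step that speaks of rice. The table ends at 65536 lines, 4 of them broken. Its 65531 complete rows hold 29563 loci, and 3 loci at its edges were left out. Low values did not give whole reads: the fullest 0.1-wide bin of log2 ratios held 3.7% to 7.8% of low transcripts.

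Transcripts were summed to loci. Testing, on log2(abundance + 1) with a pseudocount of 1, took loci that reached 1 in 2 or more libraries, with limma 3.58.1 in R 4.3.3 (5 group means, 14 libraries, eBayes with trend and robust), with Benjamini-Hochberg adjustment over all 20567 loci and a call at an adjusted p under 0.05. Fold changes on this scale understate changes of low loci. Copies were compared with permutation tests coded with numpy 2.4.6, with ranks from scipy 1.17.1. Scripts were tested on simulated data. Loci named beside the members are the 5 most and 5 least like g98846. From the clock list they are the most abundant per role and some of the 12 with the smallest p. Outside that rule g16020, g17914, g21862 and g26106 are also named. The members and lists were chosen with earlier results of these data known, and the matching words for ELF3 were completed after the annotation was seen. Replicate numbers were not used as pairs in the main fit, and the labels do not say whether they mark any. Alternatives were other scalings, filters and pseudocounts, the groups compared alone, the most abundant transcript, a replicate block, and each library left out.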

Additional observations from a re-analysis of the deposited data

How the results depend on the processing

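The 2 calls under high salt at normal light became 0 with median-of-ratios scaling, with no filter on low values, with only the groups compared and with the replicate block, and 1 with the most abundant transcript of each locus. Leaving out 1 library at a time gave 0 to 2. The 4 calls under low light without salt became 2, and the 4 of the average low light effect became 1, with median-of-ratios scaling, and ranged over 2 to 4 and 1 to 4 with a library left out; the 3 combined calls ranged over 0 to 3. Median-of-ratios scaling also turned the split of all calls. After it 156 loci were raised and 414 lowered under high salt, against 613 and 198 without it. Under low light 741 were raised and 1443 lowered, against 2196 and 878. The cause was not tested. The correlation of g98846 with g136478 fell to 0.54 after scaling and 0.50 without the normal-light check (added after seeing the data), and that of g136478 with g82379 to 0.36 and 0.34, or 0.51 to 0.75 with a library left out. Of values that passed no test, some changed sign: g136478 to -0.086 for high against low salt and -0.066 for average high salt after scaling (-0.27 to 0.38 and -0.012 to 0.27 with a library left out), and g82379 under high salt at low light to 0.036 with the replicate block (-0.37 to 0.31). With a library left out, g98846 gave -0.0067 to 0.35 for high against low salt and g85206 -0.16 to 0.30 for high salt at low light. With a pseudocount of 0.1, low light moved the ratio of g98846 to g85206 by -0.014, to g82379 by -0.030 and of g85206 to g82379 by -0.017. With a library left out these 3 ran from -0.038 to 0.094, -0.13 to 0.18 and -0.16 to 0.16, g136478 over g82379 from -0.10 to 0.41, and under high salt g98846 over g85206 from -0.027 to 0.11 and g85206 over g82379 from -0.021 to 0.30. Within groups r of g136478 ran from -0.37 to 0.15 with g82379 and -0.15 to 0.42 with g98846. Same-numbered libraries deviated together by r of -0.17 to 0.15 (mean -0.0093), against -0.23 to 0.23 (mean 0.0046) for libraries of different number. Deviations from a group mean cancel within the group, so these values cannot show that no block was shared. With the replicate block no other count of calls moved by over 1.5 times. Planned tests on a summed GIGANTEA level were not run, since loci add up to a level only in a known unit. The Rubisco and chlorophyll a-b binding sums carry the same limit and serve as a description only. Depth is unknown, and 2 libraries limit the low-light high-salt group.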
